A study of Camellia sinensis and Camellia sinensis var. assamica with 18 samples.

Results

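In leaves of tea seedlings, 90 loci had opposite responses to cold in the cultivars SCZ and YH9. They were chosen by their measured values. A locus was taken when its group mean FPKM (mapped fragments scaled to transcript length and library depth, with 0.1 added) differed at least 2-fold between NA and CA in each cultivar, upward in one and downward in the other. In addition, the 3 NA and the 3 CA values could not overlap in either cultivar, and the highest of the 6 group means had to reach 2 FPKM. Of 41021 loci in the deposited table, 27033 met the last condition and 90 met all of them. In 69 loci the level was lower at CA in SCZ and higher at CA in YH9, and in 21 loci the directions were exchanged.

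Leaf RNA came from tissue-cultured seedlings of SCZ (Shuchazao, Camellia sinensis var. sinensis, described by the study as cold-tolerant) and YH9 (Yinghong 9, var. assamica, described as cold-sensitive). Non-acclimated seedlings (NA, day 0) grew at a day temperature of 25 °C and a night temperature of 20 °C. Cold-acclimated seedlings (CA, day 14) had spent 7 days at 10 °C and 4 °C and then 7 days at 4 °C and 0 °C. De-acclimated seedlings (DA, day 21) had been returned to 25 °C and 20 °C for 7 days. Each of the 6 groups (SCZ_NA, SCZ_CA, SCZ_DA, YH9_NA, YH9_CA and YH9_DA) had 3 biological replicates, or 18 libraries in all. The labels name no other treatment. Reads of both cultivars were mapped to 1 tea genome, which was assembled from Shuchazao, so reads of YH9 that differ from it may be assigned less completely. In bulk leaves, fewer cells of a type and less RNA per cell cannot be told apart.

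Cold acclimation is the gain in freezing tolerance that many plants of temperate regions acquire during weeks of low but not freezing temperature. Leaf growth slows, photosynthesis genes are turned down, and genes for protective proteins, compatible solutes and membrane lipids are turned up. On the return to warmth the plants de-acclimate, and most transcripts move back towards their former level.

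Total estimated counts per library ranged from 47291392 in YH9_CA to 78305612 in SCZ_CA. SCZ replicates were less alike than YH9 replicates. The mean correlation of a library with the others of its group lay between 0.887 and 0.937 in SCZ and between 0.949 and 0.969 in YH9. SCZ_CA replicate 2 had the lowest value, 0.887, followed by SCZ_NA replicate 1 at 0.89. The highest correlation of SCZ_NA replicate 1 with a single library of another group was 0.917, which is not the same measure as a mean. Both libraries bear on the members. Leaving out SCZ_NA replicate 1 raised the number of loci that were lower at CA in SCZ and higher in YH9 from 69 to 168, and leaving out SCZ_CA replicate 1 or 2 gave 119 or 114. The 21 opposite loci became 32 without SCZ_NA replicate 2. Summed over 22 loci, the leaf mesophyll markers (chlorophyll a-b binding proteins and the Rubisco small subunit) were present in every library, at 20587 to 29963 FPKM at NA in both cultivars, 1636 to 6949.8 at CA and 4940.4 to 9159.7 at DA. Markers of xylem (13 loci, 1.72 to 250.8 FPKM in all libraries) and of root endodermis (4 loci, 0 to 7.27 FPKM) were low and had lower medians at CA in both cultivars. The summed markers of dividing cells (15 loci) were higher at CA in both cultivars. They stood at 101 to 121 FPKM in SCZ and 103 to 109 FPKM in YH9, against 48.8 to 79.1 FPKM at NA. The wider list of cell division and chromatin (230 loci) did not share this in SCZ. By the rule's criteria 23 of its loci were higher and 44 lower at CA in SCZ, and 37 and 29 in YH9. Markers of floral organs (27 loci) were lower at CA in both and higher in YH9 than in SCZ at NA. A group mean of at least 1 FPKM was reached by 9 of the xylem, 1 of the endodermis, 5 of the dividing-cell and 7 of the floral loci. A sum can thus rest on few loci. No member is in these lists and none of the 5 sums had opposite directions in the cultivars, and their part in the members' values was not tested.

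The members are few beside the loci that differed between NA and CA in a cultivar at all. By the same criteria, 12% of the 27033 loci were higher at CA in SCZ and 19.8% were lower, and in YH9 14.7% were higher and 17% were lower. Levels at CA were higher in both cultivars at 1900 loci and lower in both at 2864, against 0.333% of loci with opposite directions. Without the fold requirement, 316 loci had NA and CA values that did not overlap in opposite directions. The rule fixed these directions, so no test is given for them. The median change of all 27033 loci was -0.17 in SCZ and 0.01 in YH9 on the log2(FPKM + 0.1) scale, and relative to these medians, a setting chosen after seeing the data, 61 and 25 loci met the rule, 61 and 21 of them members.

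**Figure D1:**
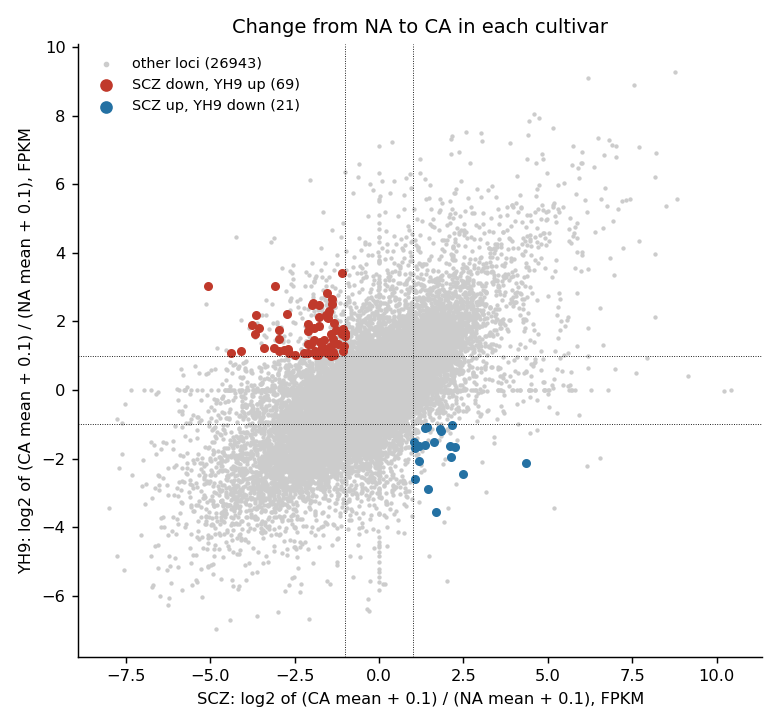
Change from NA to CA in SCZ (x axis) and in YH9 (y axis), each as the log2 ratio of group means of FPKM + 0.1, for the 27033 loci with a highest group mean of at least 2 FPKM. Dotted lines mark 2-fold. The 69 loci with lower levels in SCZ and higher levels in YH9 lie at the upper left and the 21 opposite loci at the lower right, while most loci run along the diagonal. Grey points beyond the lines in the same corners had overlapping NA and CA values in a cultivar.

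Where a group was listed at 0 in all its libraries, the change is set by the 0.1 added and is left out here. This was so for 1 of the 69 loci in each cultivar (MSTRG.6150 at SCZ_CA and MSTRG.15524 at YH9_NA). In the other 68 the log2 change in SCZ ranged from -5.06 to -1.01 (median -1.76) and that in YH9 from 1.0 to 3.41 (median 1.48). Of the 21 loci, 6 were at 0 in SCZ_NA, namely CSS014649, CSS029667, CSS047289, MSTRG.6407, MSTRG.7588 and MSTRG.17054. In the other 15 the change in SCZ ranged from 1.02 to 2.26 (median 1.41), and over all 21 that in YH9 ranged from -3.56 to -1.03 (median -1.63). Most members were therefore not far inside the 2-fold limit in at least 1 cultivar. At 3-fold in both cultivars 16 and 6 loci remained, and at 4-fold 4 and 2. Just inside the limit stood CSS045660, with -1.42 in SCZ and 1.0 in YH9, and the unannotated loci MSTRG.1885 (-1.01 and 1.57) and MSTRG.4485 (-1.01 and 1.68). Just outside stood CSS007699 (at 0 in SCZ_NA, and -1.53 in YH9), the miraculin locus CSS026444 (0.98 and -3.18) and the protein kinase APK1A locus CSS009407 (1.33 and -0.99). All 3 outer loci were at 0 to 0.388 FPKM in SCZ at NA and CA.

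**Figure D2:**
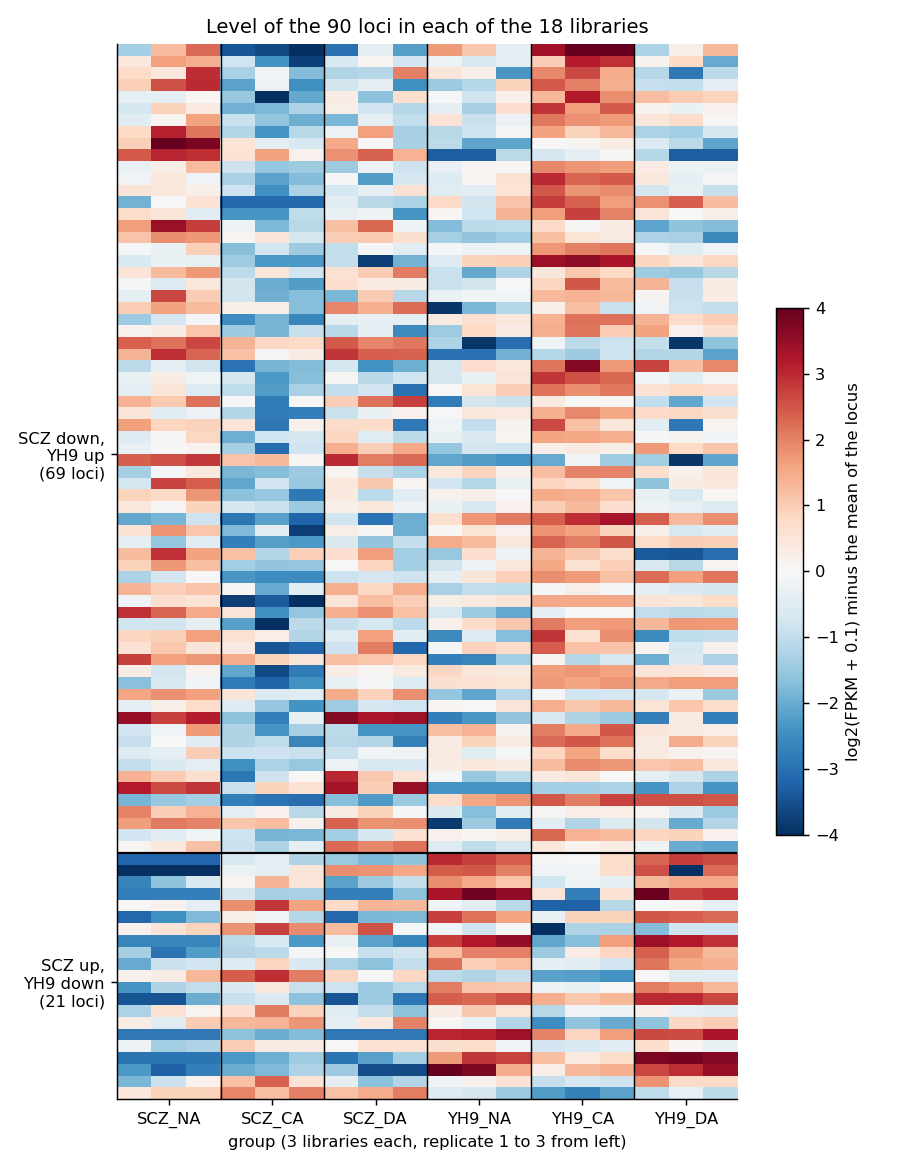
Level of each of the 90 members (rows) in each of the 18 libraries (columns, 3 per group), as log2(FPKM + 0.1) minus the mean of the locus over all libraries. The 69 loci above the line are lower in the SCZ_CA columns and higher in the YH9_CA columns than at NA, and the 21 loci below it show the reverse. Within each class loci are ordered by the smaller of their changes in the cultivars, with the largest at the top.

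Enzymes of the cell wall gave the annotated member with the largest opposite changes. CSS002844 is described as an alpha-xylosidase, an enzyme that trims xylose from xyloglucan, the main hemicellulose of the growing wall. In SCZ, CSS002844 was measured at 17.4, 40.5 and 35.9 FPKM at NA, 7.42, 2.41 and 0.879 at CA and 8.47, 14.2 and 7.54 at DA. In YH9 it was measured at 11, 8.25 and 10 FPKM at NA, 25.7, 114 and 100.1 at CA and 14.3, 22.6 and 3.16 at DA. The cultivars did not overlap at NA, where SCZ was higher, nor at CA, where YH9 was higher. Group means were 31.2 ± 12.2 and 3.57 ± 3.42 FPKM in SCZ and 9.75 ± 1.39 and 80 ± 47.6 FPKM in YH9 at NA and CA (SD, n = 3). The log2 change from NA to CA was -3.09 in SCZ and 3.02 in YH9, and YH9_CA replicate 1 stood well below the other YH9_CA libraries. At DA the cultivars overlapped, with a log2 difference of -0.25 ± 0.68 (SE) between SCZ and YH9 (edgeR, adjusted p = 0.826). The other alpha-xylosidase locus, CSS010936, was lower at CA in both cultivars (-5.52 and -2.04).

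The beta-galactosidase locus CSS023555, whose enzyme class removes galactose from wall polysaccharides, was barely present in SCZ. In SCZ its values were 0.195, 0.279 and 0.32 FPKM at NA, 0.0618, 0.0404 and 0.0299 at CA and 0.228, 0.123 and 0.281 at DA. YH9 had 1.68, 3.03 and 3.62 FPKM at NA, 5.93, 4.32 and 6.96 at CA and 6.33, 6.27 and 5.93 at DA. YH9 exceeded SCZ in every library of every stage, and its level at DA stayed near that of CA. CSS037024, an expansin-like B1 locus, ran in the other direction. SCZ libraries held 0.625, 0.135 and 0.283 FPKM at NA, 0.7, 0.783 and 1.64 at CA and 1.7, 0.859 and 0.994 at DA. Those of YH9 held 4.13, 7.29 and 7.31 FPKM at NA, 0.558, 2.18 and 3.21 at CA and 9.49, 6.14 and 4.4 at DA. In SCZ the DA values lay within or above the CA range, whereas in YH9 they lay within or above the NA range. The second expansin-like B1 locus, CSS016475, was higher at CA in YH9 (4.14), so the family held both directions in that cultivar.

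Of the 789 loci in the transcription factor list, 6 were members (0.76%, against 0.333% of all loci), all among the 69. Of these, 3 were growth-regulating factors, a plant family that promotes cell proliferation in young leaves of Arabidopsis and is held in check there by the microRNA miR396. For CSS008105, SCZ values were 2.21, 3.41 and 2.44 FPKM at NA, 1.63, 0.482 and 0.769 at CA and 2.83, 1.23 and 1.55 at DA. In YH9, CSS008105 stood at 1.66, 2.24 and 3.93 FPKM at NA, 20.6, 16.4 and 13.7 at CA and 2.52, 1.96 and 2.83 at DA. The cultivars overlapped at NA and at DA and were set apart only at CA. CSS026092 had 0.796, 1.03 and 1.01 FPKM at NA and 0.413, 0.178 and 0.18 at CA in SCZ, against 0.851, 2.45 and 2.56 and 14.5, 16.3 and 12.9 in YH9. CSS052855 had 0.775, 1.22 and 0.776 and 0.288, 0.118 and 0.188 FPKM in SCZ, against 0.561, 0.942 and 1.37 and 7.55, 4.75 and 5.12 in YH9. All 3 loci were thus higher at CA in YH9, with log2 changes of 2.65 (CSS008105), 2.84 (CSS026092) and 2.48 (CSS052855). In SCZ they were lower from a low level, with log2 changes of -1.39, -1.55 and -1.78 in the same order. Under quantile normalization of FPKM the SCZ changes of CSS008105 and CSS026092 were -0.69 and -0.80, short of 2-fold. At DA the YH9 means of CSS008105, CSS026092 and CSS052855 were back at 2.43, 2.16 and 0.892 FPKM, close to their NA means of 2.61, 1.95 and 0.957. 

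The table holds 10 growth-regulating factor loci above the minimum. By the rule's criteria 5 of them were lower at CA in SCZ and 0 higher, while in YH9 4 were higher and 3 lower. CSS021863 and CSS045812 were lower in both cultivars, with log2 changes of -5.27 and -3.92 in SCZ and -3.69 and -2.36 in YH9. The opposite pattern was therefore carried by some loci of the family, not by all of them. Families were looked at after the members were known, and the reads of close copies may have been shared between loci.

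CSS013209 matches SPATULA, a bHLH factor that shapes the carpel and restrains vegetative growth in Arabidopsis. It lies on Scaffold4911 from 119866 to 125249 in the coordinates of the deposited table. It was measured at 0.971, 3.14 and 4.3 FPKM in SCZ_NA and 0.0263, 0.373 and 0 in SCZ_CA, against 0.103, 0.149 and 0.925 in YH9_NA and 2.91, 2.11 and 1.37 in YH9_CA. The cultivars did not overlap at NA or at CA and their order turned between these stages. CSS030243 (Scaffold236, 919066 to 919768) is annotated as WIN1, which activates wax and cutin synthesis in Arabidopsis. Its levels were low, with 0.744, 0.613 and 0.276 FPKM in SCZ_NA, 0, 0 and 0.15 in SCZ_CA, 0.437, 0.192 and 1.22 in YH9_NA and 1.52, 3.3 and 1.92 in YH9_CA. A related SHINE 3-like locus, CSS003106, was lower in SCZ_CA than in SCZ_NA (-4.80) and had a change of 1.23 in YH9 with overlapping values.

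Glycosyltransferases, which attach sugars to small molecules such as flavonoids, terpenes and hormones, together with glutathione S-transferases held 4 of the 69 and 2 of the 21 loci, or 2.63% of the 228 loci of that list against 0.333% of all loci. Of the 69, 3 are annotated as UDP-glycosyltransferase 91Q1. CSS028284 was measured in SCZ at 5.79, 5.36 and 4.72 FPKM at NA, 2.19, 0.65 and 1.61 at CA and 2.38, 3.13 and 6.17 at DA. In YH9, CSS028284 was measured at 2.82, 2.95 and 5.8 FPKM at NA, 22.7, 13.8 and 14.9 at CA and 2.33, 3.23 and 2.05 at DA. The cultivars overlapped at NA, and at CA every YH9 value exceeded every SCZ value. CSS028992 had 2.1, 10.9 and 5.5 FPKM in SCZ_NA and 0.458, 0.148 and 0.486 in SCZ_CA, against 0.491, 0.616 and 1.13 in YH9_NA and 3.79, 2.26 and 3.09 in YH9_CA. CSS023225 had 1.91, 6.91 and 4.23 FPKM in SCZ_NA and 0.456, 0.0815 and 0.197 in SCZ_CA, against 0.0924, 0.202 and 0.216 in YH9_NA and 0.98, 0.553 and 0.675 in YH9_CA. At both of these loci SCZ was the higher cultivar at NA and the lower one at CA, with no overlap at either stage. All 6 loci with this annotation were higher at CA in YH9 by the rule's criteria, and 3 of them, the members, were lower at CA in SCZ.

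Of the 21, 2 share a match to a glycosyltransferase of kiwifruit. CSS026887 stood in SCZ at 4.6, 9.18 and 18.9 FPKM at NA, 37.5, 85.5 and 24.3 at CA and 13, 5.22 and 7.33 at DA. In YH9, CSS026887 stood at 15.2, 19.1 and 24.5 FPKM at NA, 8.76, 10.5 and 9.35 at CA and 57.6, 28.2 and 28.8 at DA. SCZ was higher than YH9 at CA only, and the YH9_DA values all exceeded the YH9_NA values. CSS005827 (assembled locus MSTRG.25174) had 7.91, 8.74 and 17.7 FPKM in SCZ_NA and 37.9, 55.1 and 29.3 in SCZ_CA, against 3.35, 2.97 and 3.7 in YH9_NA and 1.51, 1.45 and 1.27 in YH9_CA. Here SCZ exceeded YH9 at NA and CA without overlap, and the ranges met at DA (12.8, 6.88 and 12.5 FPKM in SCZ and 7, 4.97 and 5.1 in YH9). Among 9 loci with this match, 3 were higher and 4 lower at CA in SCZ, and 0 were higher and 4 lower in YH9. The glutathione S-transferase locus CSS025242, whose enzyme class couples glutathione to reactive compounds, was abundant in YH9. It had 17.9, 46.5 and 40 FPKM at NA, 129, 372 and 95.3 at CA and 194, 68.9 and 112 at DA in that cultivar. In SCZ it had 14.3, 23 and 17.4 FPKM at NA, 3.66, 8.09 and 8.7 at CA and 18.2, 5.36 and 7.49 at DA. YH9 stayed above its NA range at DA, where the cultivars did not overlap.

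Among transporters, CSS012219 encodes a polyol transporter, a carrier of sugar alcohols. In SCZ, CSS012219 was measured at 77.5, 37.6 and 69.2 FPKM at NA, 14.9, 5.01 and 9.03 at CA and 77.8, 65 and 82.1 at DA. In YH9, CSS012219 was measured at 113, 88.4 and 80.6 FPKM at NA, 201, 209 and 190.4 at CA and 89.9, 90 and 78.6 at DA. Relative to the group mean, SCZ replicates were spread more widely than YH9 replicates at NA and at CA. YH9 was above SCZ at NA and CA, and the DA values of both cultivars lay between 65 and 90 FPKM. In all, 17 polyol transporter loci passed the minimum, and CSS012219 was the one with opposite directions. By the same criteria 2 were higher and 4 lower at CA in SCZ, and 8 were higher and 2 lower in YH9.

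CSS037808 matches ABCG11, which exports cuticular lipids in Arabidopsis. In SCZ, CSS037808 stood at 108, 347 and 139 FPKM at NA, 103, 20.2 and 87 at CA and 72.5, 145 and 17.4 at DA. YH9 showed 15.9, 72.5 and 39.4 FPKM at NA, 115, 95.6 and 74.3 at CA and 4.31, 4.16 and 5.4 at DA. The NA and CA ranges in SCZ were only just apart, at 108 FPKM in the lowest NA and 103 FPKM in the highest CA library. In YH9 the DA values were below both the NA and the CA values. The second ABCG11 locus, CSS018736, was lower at CA in both cultivars (-3.66 in SCZ and -1.27 in YH9). CSS020990, an acyl-CoA--sterol O-acyltransferase that esterifies sterols in Arabidopsis, had 16.6, 12.5 and 22.7 FPKM in SCZ_NA and 7.38, 6.49 and 4.37 in SCZ_CA, against 9.97, 7.76 and 13.7 in YH9_NA and 23.9, 30 and 19.5 in YH9_CA.

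**Figure D3:**
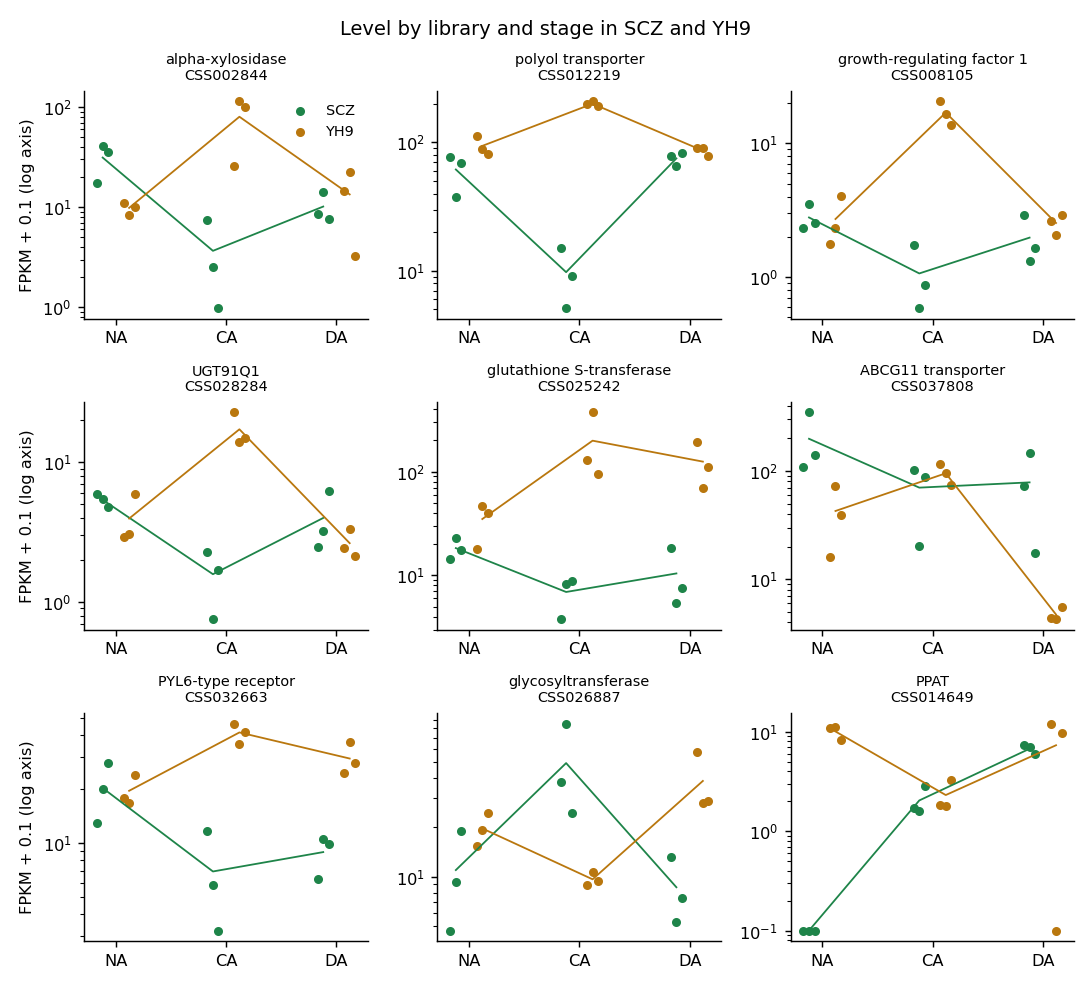
FPKM + 0.1 (log axis) of 9 members in each library at NA, CA and DA, with SCZ in green and YH9 in orange. Points are libraries and lines join the means of 3. In 7 panels SCZ dips and YH9 peaks at CA. In the last 2, for the glycosyltransferase CSS026887 and the phosphopantetheine adenylyltransferase (PPAT) CSS014649, SCZ is higher at CA than at NA and YH9 lower, and 1 YH9_DA library of CSS014649 is at 0.

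Of the 982 loci in the kinase list, 4 were members (0.407%, against 0.333% of all loci), all among the 69. The list was matched on words of the description and left out CSS006865, of the 21, which is annotated with protein kinase activity. CSS032663, described as a pyrabactin resistance-like protein 6, belongs to the abscisic acid receptors that inhibit PP2C phosphatases once the hormone is bound. CSS032663 had 12.7, 19.8 and 27.8 FPKM at NA, 11.6, 5.72 and 3.14 at CA and 6.21, 10.4 and 9.7 at DA in SCZ. It had 17.8, 16.6 and 23.9 FPKM at NA, 46.2, 35.7 and 41.7 at CA and 24.4, 36.3 and 27.6 at DA in YH9. The cultivars overlapped at NA and were apart at CA and at DA, with YH9 higher. Of 11 loci of this receptor family, 1 was higher and 2 lower at CA in SCZ, and 4 were higher and 0 lower in YH9. CSS022147, a G-type lectin receptor-like kinase, had 1.89, 3.29 and 4.99 FPKM in SCZ_NA and 0.876, 1.39 and 0.784 in SCZ_CA, against 6.77, 8.53 and 7.19 in YH9_NA and 14.1, 24.4 and 24.2 in YH9_CA. CSS044405 matches SOBIR1, a kinase that partners immune receptor-like proteins. It had 12.8, 14.5 and 36.7 FPKM in SCZ_NA and 10.1, 10.4 and 10 in SCZ_CA, against 24.1, 13.4 and 17.7 in YH9_NA and 33.4, 56.1 and 31 in YH9_CA, and its SCZ mean at NA rested largely on replicate 3. CSS011853, a further kinase, had 1.74, 1.35 and 3.12 FPKM in SCZ_NA and 0.585, 0 and 0.622 in SCZ_CA and no value above 0.79 FPKM in YH9.

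Enzymes of aromatic metabolism included CSS043129, an arogenate dehydratase, which makes phenylalanine in the plastid. It had 9.3, 21.7 and 13.3 FPKM in SCZ_NA and 1.73, 4.48 and 0.364 in SCZ_CA, against 6.46, 9.09 and 7.03 in YH9_NA and 21.5, 18.9 and 11.5 in YH9_CA. SCZ was the higher cultivar at NA and YH9 at CA, without overlap at either stage. The other arogenate dehydratase 3 locus, CSS015009, was far more abundant (109 and 108 FPKM at NA) and lower at CA in both cultivars (-1.52 and -1.83). CSS028193, a caffeoyl-CoA O-methyltransferase of lignin precursor synthesis, had 3.17, 3.56 and 6.28 FPKM in SCZ_NA and 0.979, 0.719 and 1.48 in SCZ_CA, against 1.01, 5.06 and 3.68 in YH9_NA and 8.14, 13.2 and 5.92 in YH9_CA.

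The member with the highest group mean was CSS017923 (assembled locus MSTRG.2489), described as reductase 1. In SCZ, CSS017923 was measured at 393, 298 and 339 FPKM at NA, 157, 37.8 and 111 at CA and 422, 273 and 421 at DA. In YH9, CSS017923 was measured at 62.3, 76.8 and 75.7 FPKM at NA, 144, 184 and 148 at CA and 117, 101 and 94.1 at DA. SCZ exceeded YH9 at NA and at DA, and the ranges overlapped at CA. CSS026993 (assembled locus MSTRG.13321) matches a selenium-binding protein. SCZ libraries of CSS026993 gave 54.7, 92.6 and 129.8 FPKM at NA, 18.5, 54.6 and 22.8 at CA and 59.3, 77.6 and 161 at DA. YH9 libraries gave 20.9, 9.29 and 16.4 FPKM at NA, 52.6, 82 and 66.7 at CA and 14.5, 13.4 and 18 at DA. It repeated the pattern of CSS017923, with SCZ above YH9 at NA and at DA and an overlap at CA. Both identifiers are also carried by further assembled loci, with group means of at most 9.62 FPKM. This was so for the identifiers of 7 members in all, and at CSS006508, CSS029667 and CSS034813 the further locus had the higher NA mean in at least 1 cultivar. The split of a gene's reads between loci thus enters these values. MSTRG.13320, the other CSS026993 locus, had log2 changes of 0.40 in SCZ and 2.76 in YH9.

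CSS014649 took another course. It is described as a phosphopantetheine adenylyltransferase, an enzyme of coenzyme A synthesis. In SCZ, CSS014649 was listed at 0, 0 and 0 FPKM at NA, 1.61, 1.48 and 2.72 at CA and 7.23, 6.86 and 5.83 at DA. In YH9, CSS014649 was listed at 10.7, 11.1 and 8.06 FPKM at NA, 1.74, 1.71 and 3.18 at CA and 12, 0 and 9.64 at DA. It was at 0 in all SCZ_NA libraries, was present in all SCZ_CA libraries and was highest in SCZ_DA, so it did not return towards NA. No fold in SCZ is given for it, since SCZ_NA was at 0. One of the YH9_DA libraries was at 0 while the other 2 were at the NA level. The second locus with this description, CSS011284, was lower at CA in both cultivars (-1.54 and -2.10).

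Other annotated members had lower levels. CSS038911, a subunit of RNA polymerase V, which acts in RNA-directed DNA methylation, was higher at CA in SCZ (4.95, 6.82 and 6.93 FPKM at NA and 14.5, 8.51 and 15.2 at CA) and lower in YH9 (2.53, 2.26 and 1.27 and 0.708, 0.479 and 0.763). Of the protein turnover list, 2 of 877 loci were members (0.228%), and its words left out CSS037961, which is annotated with proteolysis. CSS001447, an F-box protein like EID1 of phytochrome signalling, had log2 changes of -2.72 and 2.21, and CSS030562, a subunit of the plastid Clp protease, of -3.55 and 1.82. CSS030562 did not exceed 0.45 FPKM in any YH9 library of NA or CA.

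The largest opposite changes of all belonged to a locus with no reference gene and no description, MSTRG.9036, named here after its values were seen. In SCZ, MSTRG.9036 was measured at 7.28, 44.9 and 92.6 FPKM at NA, 1.7, 1.46 and 0.9 at CA and 2.32, 14.6 and 4.07 at DA. In YH9, MSTRG.9036 was measured at 62, 40.1 and 14.7 FPKM at NA, 198, 394 and 374 at CA and 7.89, 22.5 and 47.2 at DA. All SCZ_CA values were below 2 FPKM while all YH9_CA values were at 198 FPKM or more, and the cultivars overlapped at NA and at DA. The log2 changes were -5.06 and 3.04. Of loci whose description names no function, CSS053117 had 7.59, 7.16 and 14.1 FPKM in SCZ_NA and 1.22, 1.36 and 0.473 in SCZ_CA, against 4.63, 4.7 and 4.1 in YH9_NA and 11.6, 11.2 and 8.82 in YH9_CA. CSS031063 had 4.9, 6.04 and 6.62 and 2.33, 0.628 and 3.42 FPKM in SCZ and 1.98, 3.53 and 3.42 and 7.13, 7.76 and 7.15 in YH9. At DA it was above all its NA and CA values in both cultivars, at 16.6, 12 and 17.2 FPKM in SCZ and 19.8, 10.6 and 13 in YH9. CSS033623 had changes of -1.96 and 2.53. Among the 21 loci, CSS006865 turned the order of the cultivars, with 0.24, 0.606 and 1.32 FPKM in SCZ_NA and 2.25, 5.47 and 2.9 in SCZ_CA, against 7.66, 6.07 and 4.59 in YH9_NA and 1.15, 1.76 and 1.56 in YH9_CA.

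No reference gene name was given for 40.0% of members, against 23.8% of the 27033 loci (members included), and no product description for 47.8%, against 30.3%. These differences were not tested. Of the 47 described members, 27 fell into a list with an informative function. The lists were built from words in the product description, so a gene can be outside the list of its role. The arogenate dehydratase CSS043129, an enzyme of amino acid synthesis, and the abscisic acid receptor CSS032663 are in none. By these words, lists with 0 members were photosynthesis (84 loci), cold-regulated and LEA proteins (16), heat shock proteins and chaperones (139), flavonoid synthesis (59), cytochromes P450 (94), immune receptors and defence proteins (215), calcium signalling (136), sugar and starch metabolism (101), amino acid and nitrogen metabolism (297), clock and light sensing (33), cell division and chromatin (230), RNA processing and ribosome (814), redox enzymes (505) and transposon-like loci (8). In photosynthesis 41 of the 84 loci were lower at CA in both cultivars, and 6 of the 16 cold-regulated and LEA loci were higher in both. Beside the lists of transcription factors, glycosyltransferases, kinases and protein turnover, members were found in transporters and channels (4 of 636, 1 of them the AAA-ATPase CSS030819, matched by that word), cell wall (3 of 218), phenylpropanoid (1 of 130), hormones (1 of 204, the WIN1 locus CSS030243) and lipids (1 of 316). Of all loci, 0.333% were members, and counts this small were not tested.

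Many members were weak in 1 cultivar. The NA or CA mean reached 1 FPKM in both cultivars at 56 of the 90 loci (62.2%), against 86.0% of the 27033 loci. Of the 21 loci with higher levels at CA in SCZ, 10 stayed under 1 FPKM in SCZ at both stages and 1 stayed under it in YH9. Of the 69, 10 stayed under it in SCZ and 14 in YH9. In the weaker cultivar the higher of the NA and CA mean counts per locus was 2.33 at the lowest and 92.8 at the median, and 15 members had fewer than 20 counts there. In the stronger cultivar the median was 384 counts and 0 members had fewer than 20. The reverse direction of the weaker cultivar thus rested on few reads at these 15 loci. With 1 FPKM asked of both cultivars, 46 and 10 loci remained, and with a pseudocount of 0.5 in place of 0.1 39 and 8.

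The rule let the order of the cultivars turn, and at 45 of the 90 members it did so between NA and CA, against 31.4% of all loci. At 11 members the cultivars did not overlap at either stage and changed places, 9 of the 69 and 2 of the 21, or 12.2% of members against 1.01% of all loci. The rule used these libraries, so nothing is read from the shares. These were CSS002844, CSS013209, CSS028992, CSS023225, CSS031063, CSS053117, CSS043129, CSS043269 and CSS045660 among the 69, and CSS006865 and MSTRG.4026 among the 21. Among the 69 loci the log2 ratio of SCZ to YH9 (group means of FPKM + 0.1) had a median of 0.72 at NA, -2.96 at CA and -0.03 at DA. Among the 21 loci the medians were -2.91, -0.09 and -2.85, and the NA median was -1.30 over the 15 loci that were not at 0 in SCZ_NA. Of the 69 loci, 31 were at least 2-fold higher in SCZ at NA and 7 at least 2-fold higher in YH9. Of the 21, these numbers were 2 and 14. Among all 27033 loci the shares were 15.1% and 13.1%. The NA values took part in choosing the members and their classes, so these counts are a description.

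**Figure D4:**
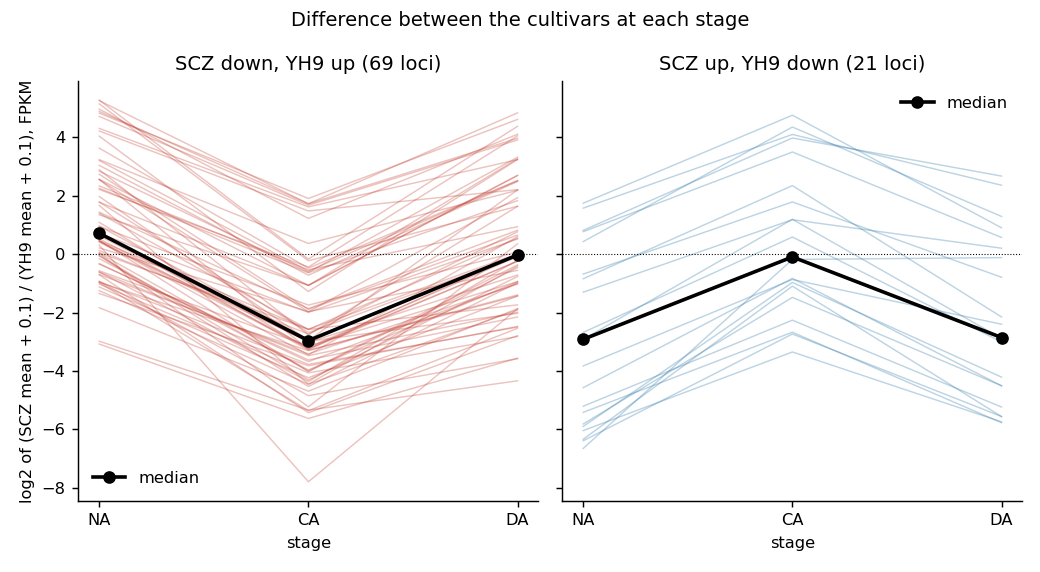
Log2 ratio of the SCZ to the YH9 group mean (FPKM + 0.1) at NA, CA and DA for the 69 (left) and the 21 (right) members. Thin lines are loci and black points are medians, which run 0.72, -2.96 and -0.03 on the left and -2.91, -0.09 and -2.85 on the right. Lines at NA and CA show what the rule selected, and only the DA values come from libraries it did not use for direction.

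The DA libraries played no part in the choice of direction, although their means could meet the 2 FPKM minimum. The difference between the cultivars after de-acclimation was tested. It answers whether the cultivars differed at the members after 7 days of warmth, not whether the difference at CA had persisted. The quasi-likelihood test of edgeR was run on the estimated counts of 29019 loci, and a locus was called at an adjusted p below 0.05 and at least 2-fold. Of all loci tested, 11.4% were called higher and 12.6% lower in SCZ_DA than in YH9_DA, or 24% in either direction. All 90 members were tested and 52 (57.8%) were called. Of the 69, 20 were called higher in SCZ and 16 lower, and of the 21, 3 were called higher and 13 lower. Of the members, 3 met the minimum only at DA, CSS034813 and CSS045660 through SCZ_DA and CSS012915 through YH9_DA, and all 3 were called higher in the group that admitted them, so their calls are no support. Without them 49 of 87 members (56.3%) were called, against 23.7% of the tested loci with an NA or CA mean of at least 2 FPKM. The share of called members was above the background in both classes, and in the 21 loci the calls lay mostly on the side of YH9. The minimum enters these shares. Of the 90 members, 20 stayed under 1 FPKM in SCZ and 15 in YH9 at NA and CA. They passed the minimum only through the other cultivar or at DA, so their calls are no support. The background was not matched for level in the weaker cultivar. A mean of 1 FPKM in both cultivars was reached by 62.2% of members but 86.0% of all loci. Members with a large gap at NA made up most of the calls. Where the NA gap was at least 2-fold 41 of 54 loci were called, and where it was smaller 11 of 36. A gap of at least 2-fold at NA was held by 60.0% of members. Of all loci, 15.1% were that much higher in SCZ and 13.1% in YH9. The background was not matched for this gap either, so these calls have no share over all loci beside them. A called difference at DA lay on the same side as the NA difference at 50 of 52 members, and as the CA difference at 37. The 3 higher calls of the 21 became 1 without YH9_DA replicate 3. Of the 56 members with at least 1 FPKM in both cultivars, 23 were called. In the class of 21, 10 loci were among the 56, with 3 called higher and 3 lower in SCZ. The share called over all loci under this condition was not computed, so the 23 calls have no background.

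Among members called higher in SCZ_DA, the UDP-glycosyltransferase 91Q1 locus CSS023225 had 1.37, 3.04 and 0.454 FPKM in SCZ_DA and 0.0464, 0.108 and 0.0926 in YH9_DA. Its log2 difference was 4.38 ± 0.75 (SE; edgeR, adjusted p = 4.56e-04). For the ABCG11 locus CSS037808 the difference was 4.22 ± 0.77 (edgeR, adjusted p = 7.28e-04), with all 3 SCZ values above all 3 YH9 values. The kinase CSS011853 had 1.28, 3.06 and 4.56 FPKM in SCZ_DA and 0.249, 0.0648 and 0.306 in YH9_DA (3.96 ± 1.2, edgeR, adjusted p = 0.0214). The selenium-binding protein CSS026993 differed by 2.88 ± 0.47 (edgeR, adjusted p = 3.36e-04) and reductase 1 CSS017923 by 2.02 ± 0.40 (edgeR, adjusted p = 0.00127). For CSS037961, a hypothetical protein annotated with serine-type endopeptidase activity, the difference was 2.85 ± 0.71 (edgeR, adjusted p = 0.00667). CSS037961 had 3.9, 5.17 and 3.23 FPKM in SCZ_DA and 0.653, 0.606 and 0.632 in YH9_DA. The RNA polymerase V subunit CSS038911 differed by 2.58 ± 0.41 (edgeR, adjusted p = 2.48e-04), with SCZ_DA values of 8.36, 10.5 and 15.3 FPKM and YH9_DA values of 1.78, 2.91 and 1.71. The call of CSS028992, at 1.94 ± 0.70 (edgeR, adjusted p = 0.0495), was lost under 18 of 26 alternative settings, over which its adjusted p ranged from 0.0152 to 0.465. CSS011853 lost its call without SCZ_DA replicate 3 or any single YH9_DA library (adjusted p from 4.54e-04 to 0.0839 over all edgeR, limma and DESeq2 alternatives).

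Among members called lower in SCZ_DA, the beta-galactosidase CSS023555 had the smallest adjusted p of the annotated members, with a difference of -4.66 ± 0.37 (edgeR, adjusted p = 6.13e-07). The glutathione S-transferase CSS025242 differed by -3.40 ± 0.63 (edgeR, adjusted p = 7.98e-04). Of the growth-regulating factors, CSS026092 was called, at -2.68 ± 0.77 (edgeR, adjusted p = 0.0156), with 0.599, 0 and 0.27 FPKM in SCZ_DA and 2.35, 1.81 and 2.33 in YH9_DA. CSS008105 (-0.19) and CSS052855 (-0.67) did not pass. The abscisic acid receptor CSS032663 differed by -1.58 ± 0.35 (edgeR, adjusted p = 0.00287), the lectin receptor kinase CSS022147 by -1.28 ± 0.28 (edgeR, adjusted p = 0.00284) and the caffeoyl-CoA O-methyltransferase CSS028193 by -1.94 ± 0.62 (edgeR, adjusted p = 0.0276). In the class of 21, the expansin-like CSS037024 differed by -2.31 ± 0.68 (edgeR, adjusted p = 0.0181), CSS006865 by -2.87 ± 0.51 (edgeR, adjusted p = 6.07e-04), and the uncharacterized CSS012915 and CSS033842 by -3.34 ± 0.64 and -2.95 ± 0.53 (edgeR, adjusted p = 0.00106 and 6.56e-04), the former having met the minimum only through YH9_DA. The kiwifruit-type glycosyltransferases were called in opposite directions, CSS005827 higher in SCZ at 1.10 ± 0.30 and CSS026887 lower at -1.97 ± 0.49 (edgeR, adjusted p = 0.013 and 0.00642). CSS050397, a conserved hypothetical protein, was called at -3.21 ± 1.15 (edgeR, adjusted p = 0.0483), and this call was lost under 19 of 26 alternatives. Single libraries also decided other calls, with ranges of the adjusted p over all edgeR, limma and DESeq2 alternatives as follows. CSS026092 lost its call without SCZ_DA replicate 3 (2.17e-04 to 0.0982) and CSS028193 without SCZ_DA replicate 1 or 3 or YH9_DA replicate 1 (0.00581 to 0.131). CSS037024 lost it without SCZ_DA replicate 2 or 3 or YH9_DA replicate 1 (8.39e-04 to 0.0674), and CSS005827 without SCZ_DA replicate 1 or 3 or YH9_DA replicate 2 or 3 (0.0035 to 0.062). CSS026092 and CSS028193 also lost it when the spread came from the DA libraries alone, and CSS005827 with limma on log2 FPKM.

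**Figure D5:**
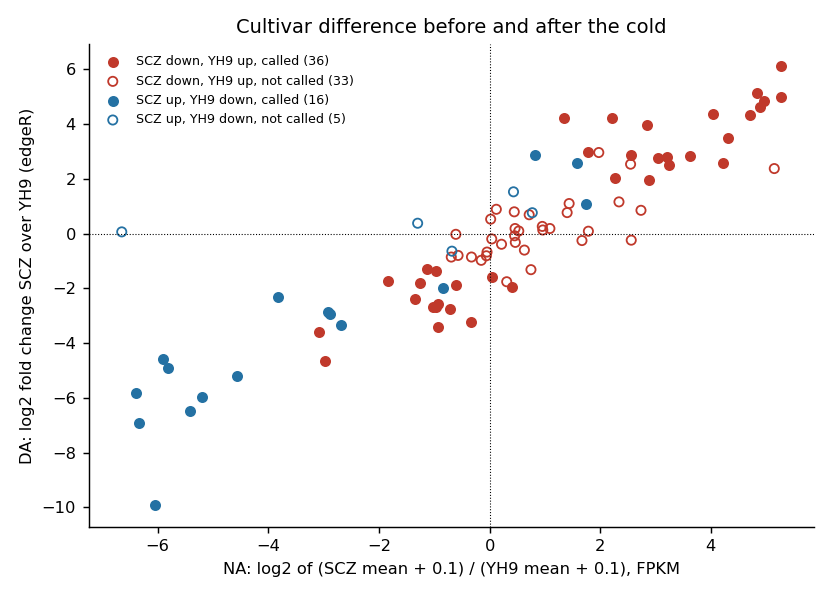
Difference between the cultivars before and after the cold for the 90 members. The x axis is the log2 ratio of SCZ to YH9 at NA (group means of FPKM + 0.1), the y axis the edgeR log2 fold change of SCZ_DA over YH9_DA. Filled points passed the test (36 of 69 and 16 of 21 loci) and open points did not. Called points lie in the lower left and upper right, except for CSS028193 and CSS032663.

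Positions of the DA level between NA and CA were read on the log2(FPKM + 0.1) scale and are values only, since DA is set against libraries that the rule used. Among the 69 loci, SCZ_DA lay nearer to NA than to CA at 48 (69.6%) and YH9_DA at 53 (76.8%). Among all loci that were lower at CA in SCZ the share was 84.5%, and among those higher at CA in YH9 it was 82.7%. Of the 21, 11 (52.4%) were nearer to NA in SCZ and 19 (90.5%) in YH9, against 78.5% and 92.0% of all loci with changes in these directions. In both cultivars together, 46 members were nearer to NA. At 30 members (33.3%) the 3 DA values lay on opposite sides of the 3 CA values in the cultivars without overlap, 21 of the 69 and 9 of the 21, against 1.18% of all loci. This count follows in part from the choice of members, because their CA values were selected to lie apart from NA in opposite directions.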

How the data were processed

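Leaf RNA of 18 libraries was analysed, with groups taken from the sample labels. The authors deposited 1 table with an FPKM value and a whole-number estimated count for each of 41021 loci and library. Per the labels, the authors used cutadapt 1.9, HISAT2 2.2.1 and StringTie 2.1.6 and list UMI-tools (the study's methods give another StringTie version), and which program wrote the estimated counts that were deposited is not stated. All 36 value columns were used, and 0 columns belonged to no sample. The genome is the tea genome the study names.

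Members were found from FPKM with a pseudocount of 0.1. Counts were fitted with edgeR 4.0.16 (R 4.3.3), TMM scaling and a mean for each of the 6 groups, all 18 libraries sharing the spread. Only loci that reached 1 FPKM in 3 or more libraries were tested, with p-values adjusted by Benjamini-Hochberg over these. The test was checked on simulated counts. Whether replicates came from separate plants is not given beyond their name, so p-values measure the spread between these samples. The members and the gene lists were chosen with earlier results of these data known. Named genes are members with a description, taken as the 10 per class whose smaller change of the 2 cultivars was largest, the 2 most abundant per list, the 5 largest called differences at DA per direction, and 3 loci on each side of the threshold. Other names were chosen after their values were seen. Alternatives changed the pseudocount, minimum, fold, scaling, filter, tool, spread and block, and left out each library in turn. limma 3.58.1 and DESeq2 1.42.0 served as other tools. No sequence is shown.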

Additional observations from a re-analysis of the deposited data

Results flagged for a closer look

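The 90 members are themselves responses that differ between the cultivars, since every CA library lay above every NA library in one cultivar and below in the other. The difference between the cultivars' responses was not tested, because the rule selected it. At 30 of them (33.3%, against 1.18% of all loci) the cultivars moved in opposite directions from CA to DA without overlap. That count follows in part from the choice of CA values that lay apart from NA in opposite directions, and it was not tested either.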

How the results depend on the processing

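The number of members depended on the processing. Calls at DA were counted over the fixed members and under other settings, so their range is not compared with that of the member number. Against 69 loci lower at CA in SCZ and higher in YH9, and 21 with the reverse, a pseudocount of 0.5 gave 39 and 8, and one of 1 gave 30 and 2. At 3-fold 16 and 6 loci remained, and at 4-fold 4 and 2. Quantile normalization of FPKM shifted the median SCZ change by 0.22 on the log2 scale and gave 49 and 50, of which 36 and 18 were members. TMM-scaled counts gave 57 and 21 (52 and 18 of them members), and median-of-ratios scaling 56 and 25 (52 and 19). Membership and the size of the reverse class thus depended on scaling. Leaving out 1 library gave 62 to 168 loci and 21 to 32 loci. The first count passed 1.5 times its value without SCZ_NA replicate 1 (168), SCZ_CA replicate 1 (119) or SCZ_CA replicate 2 (114), and the second without SCZ_NA replicate 2 (32). The loci found without SCZ_NA replicate 1 and SCZ_CA replicate 2 together, an alternative chosen after seeing the data, numbered 236 and 47, of which 65 and 18 were members. Fewer libraries make the requirement of no overlap easier to meet. With 1 FPKM asked of both cultivars, also chosen after seeing the data, 46 and 10 loci remained, and 23 of these 56 were called at DA. No share over all loci was computed under this condition. Of the 46, 7 were called higher in SCZ and 10 lower, and of the 10, 3 higher and 3 lower. At DA, 43 to 52 members were called with 1 library left out, against 52. By class and direction these were 16 to 20 higher and 11 to 16 lower of the 69, and 1 to 4 higher and 12 to 13 lower of the 21, and over all loci 2661 to 3632 higher and 3034 to 3839 lower. With the replicate block 48 were called (18 higher and 14 lower of the 69, 3 higher and 13 lower of the 21), with DESeq2 53 and with limma on log2(FPKM + 1) 49. Deviations of same-numbered SCZ_DA and YH9_DA libraries had correlations of 0.112, 0.042 and -0.0836, against -0.127 to 0.0908 for pairs of unlike number. Pairing by replicate number was not examined at NA, at CA or across stages. Of 21 named calls at DA, 14 held under every alternative and 7 were lost under at least 1, CSS028992 under 18 and CSS050397 under 19 of 26. Of 74 named changes from NA to CA, 0 reversed under 3 other pseudocounts, TPM and quantile normalization. A pseudocount cannot turn the sign of a change, and the rule chose these changes as large and without overlap, so this is no support. Of the 74, 37 moved by more than the replicate SD under at least 1 of these 5 settings. By setting, 33 moved with a pseudocount of 1, 15 with 0.5, 13 under quantile normalization, 7 with 0.01 and 2 as TPM. With the minimum asked of NA or CA means, chosen after seeing the data, 67 and 20 loci remained and 49 were called at DA. Promoter motifs were not run, since no sequence was at hand. Depth limits the 15 members with fewer than 20 counts in the weaker cultivar.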
